A study of Mus musculus with 2 samples.

Results

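TRAV16 is a subgroup of TCRα V genes that is present in the C57BL/6 mouse as 3 near-identical copies, TRAV16D-DV11, TRAV16N and TRAV16. The clonotypes described here had a TRAJ gene as first J hit and 1 of these copies as the first gene in their list of V hits, so the members were chosen on a measured value, the V alignment score. By this rule 428 of 6089 TCRα clonotypes belonged to the family in the thymus library and 708 of 9583 in the spleen library. In all, 1136 family clonotypes were found among 15672 TCRα clonotypes, and among 19558 clonotypes of both chains. Only 2 of the 3 copies were listed first in any of them.

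The data came from iT cells, T cells derived from the iR9-ESC line, a C57BL/6 (CD45.2) embryonic stem cell line with a doxycycline-inducible Runx1-p2a-Hoxa9 cassette at the Rosa26 locus. Hematopoietic cells made from this line were transplanted into irradiated, immunodeficient B-NDG mice (CD45.1), and iT cells were sorted from the thymus or the spleen at week 6, with 15000 sorted cells stated for each. Both groups thus shared line, cassette, host and time, and there was 1 library per tissue. Both gates took CD4SP and CD8SP cells. The listed spleen gate also required CD62L+CD44-, and the listed thymus gate excluded TCRγδ+ and non-T cells without these naive markers, although the study elsewhere describes the cells of both tissues as naive by the same markers. Whether both libraries came from the same mouse was not stated.

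A TCRα chain is made when a V segment is joined to a J segment, with trimming of both ends and insertion of random nucleotides. The joint lies in CDR3, the part of the chain that meets the peptide. A first joint can be replaced by a later one that uses a V gene further upstream and a J gene further downstream, so V genes near the J cluster are known to pair mostly with its V-proximal end. In C57BL/6 mice part of the V cluster is repeated, and the letters D and N in a gene's name mark the repeats. DV11 means that the TRAV16D copy can also be joined to TCRδ segments.

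On chromosome 14 of GRCm38 (GENCODE annotation, + strand) Trav16d-dv11 lies at 53047287 to 53047821, Trav16n at 53351028 to 53351621 and Trav16 at 53743104 to 53743705, all annotated as TCR V genes. From their ends to the first TRAJ gene, Traj61, the distances were 1107, 803 and 411 kb, so TRAV16 is the copy nearest to the J genes. The V segments of the reference transcripts, 290 bases from the exon that ends each gene, are shown with the few bases that differ among them in capitals (6 positions).
Trav16d-dv11, chr14:53047532-53047821: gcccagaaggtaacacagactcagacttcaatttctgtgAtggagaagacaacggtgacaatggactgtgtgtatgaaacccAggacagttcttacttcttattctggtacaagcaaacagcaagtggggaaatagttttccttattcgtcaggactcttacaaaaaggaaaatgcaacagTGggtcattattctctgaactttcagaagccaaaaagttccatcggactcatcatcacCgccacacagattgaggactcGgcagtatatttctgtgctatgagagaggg
Trav16n, chr14:53351332-53351621: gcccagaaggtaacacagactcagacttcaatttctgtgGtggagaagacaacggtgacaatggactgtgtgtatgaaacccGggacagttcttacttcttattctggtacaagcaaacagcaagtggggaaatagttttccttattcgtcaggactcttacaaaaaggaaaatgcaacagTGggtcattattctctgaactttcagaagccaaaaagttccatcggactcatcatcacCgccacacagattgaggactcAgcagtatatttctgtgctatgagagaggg
Trav16, chr14:53743416-53743705: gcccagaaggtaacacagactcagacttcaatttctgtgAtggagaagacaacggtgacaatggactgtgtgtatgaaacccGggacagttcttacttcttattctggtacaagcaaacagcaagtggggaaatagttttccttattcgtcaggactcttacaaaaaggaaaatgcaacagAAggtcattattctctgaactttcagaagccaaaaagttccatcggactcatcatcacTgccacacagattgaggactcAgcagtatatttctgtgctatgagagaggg
Trav16d-dv11 and Trav16n differed at 3 of these bases, Trav16n and Trav16 at 4, and Trav16d-dv11 and Trav16 at 5. Each pair differed at 2 of 96 amino acids. The last 17 bases, which enter CDR3, were the same in all 3 copies, so CDR3 itself does not tell the copies apart.

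The family held a share of TCRα reads above its share of clonotypes in both libraries, as did some other subgroups given below. In the thymus it made up 7.03% of TCRα clonotypes (Wilson 95% interval 6.41% to 7.70%) and 77764 of 918063 TCRα reads, which is 8.47% (8.41% to 8.53%). In the spleen it made up 7.39% of clonotypes (6.88% to 7.93%) and 212887 of 1820314 reads, or 11.7% (11.6% to 11.7%). No molecular identifiers were stated, so reads are not independent molecules and the intervals hold only the error of counting. With 1 library per tissue, tissue, library and sorting gate cannot be told apart.

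By clonotypes TRAV16 ranked 6th of 21 TRAV subgroups in thymus and 7th of 22 in spleen, and by reads 5th and 4th. The subgroups set beside it had more genes. TRAV6 (15 genes listed first in each library) held 16.6% of clonotypes in thymus and 15.7% in spleen, TRAV7 (13 genes) held 14.6% and 12.3%, and TRAV12 (10 genes) held 10.6% and 12.3%. TRAV14 (9 genes) held 11.5% and 9.35%, TRAV13 (12 genes) held 7.09% and 8.32%, and TRAV9 (10 genes) held 4.02% and 4.96%. By reads, TRAV7 held 19.7% in thymus and 15.9% in spleen and TRAV14 held 12.9% and 13.1%, so both exceeded their clonotype shares as the family did. TRAV13 did so in thymus (13.9%) but not in spleen (5.39%). TRAV6, TRAV12 and TRAV9 had read shares below their clonotype shares in both libraries. The family's share came under 2 gene names. TRAV16D-DV11 and TRAV16N ranked 1st and 2nd by clonotypes among 118 V genes of the thymus, and TRAV16N and TRAV16D-DV11 ranked 2nd and 3rd among 121 of the spleen. These are ranks of names as listed first, and the copy behind each name is uncertain, as described below.

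Between these copies the clonotypes were split almost evenly. TRAV16D-DV11 was listed first in 215 thymus clonotypes with 32373 reads and in 336 spleen clonotypes with 105018 reads. TRAV16N was listed first in 213 thymus clonotypes with 45391 reads and in 372 spleen clonotypes with 107869 reads. TRAV16N thus took 49.8% of family clonotypes in thymus (45.1% to 54.5%) and 52.5% in spleen (48.9% to 56.2%), and 58.4% and 50.7% of family reads. TRAV16 was listed first in 0 of 6089 thymus clonotypes, which allows a share of up to 0.0493%, and in 0 of 9583 spleen clonotypes, which allows up to 0.0313%. It was also absent from the further V hits of every TCRα clonotype of both libraries. Whether the gene library used by MiXCR, the program with which the authors assembled the reads, held TRAV16 was not given in the sources used here. The limits of 0.0493% and 0.0313% are therefore for the name TRAV16 as listed, and not for use of the gene.

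The family's reads were spread over many clonotypes, as the plot of reads against rank shows. Family clonotypes had a median of 120.5 reads in thymus and 171 in spleen, against 81 and 99 for other TCRα clonotypes. The median of TRAV7 was higher in thymus (128) and lower in spleen (153). Single-read clonotypes numbered 19 and 22. The 10 clonotypes with most reads held 14.6% of family reads in thymus and 16.9% in spleen, and evenness expressed as an effective number of family clonotypes (from the entropy of their read shares) was 266 and 353.

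**Figure D1:**
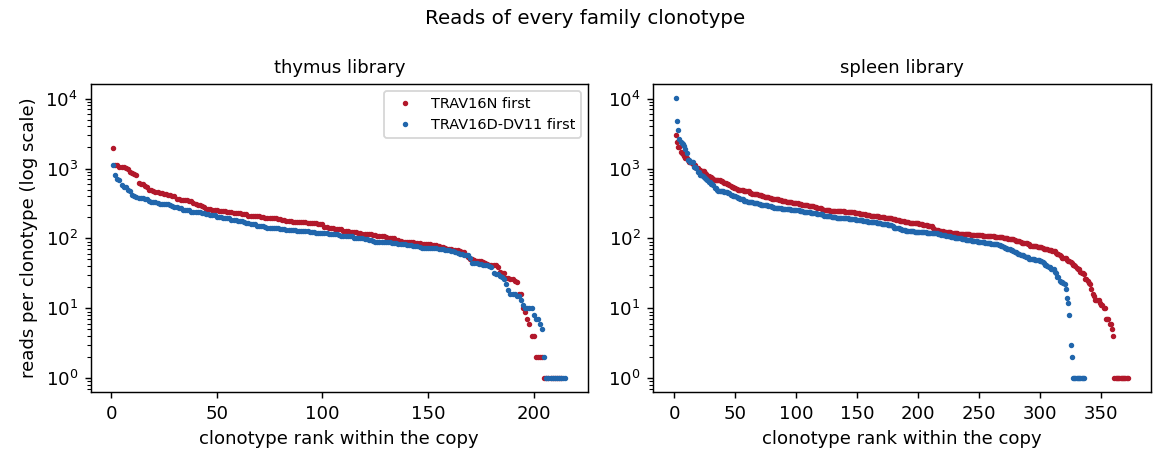
Reads of each family clonotype (log scale) against its rank within the copy listed first, TRAV16N in red and TRAV16D-DV11 in blue, for the thymus and the spleen library. Each point is 1 clonotype, and the highest points are the spleen TRAV16D-DV11 clonotype of 10330 reads and the thymus TRAV16N clonotype of 1970 reads.

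V names of the family were seldom tied but still ambiguous. An exact tie of the top V score was found in 1 of 428 family clonotypes in thymus (0.234%, Wilson 95% interval 0.0413% to 1.31%) and in 3 of 708 in spleen (0.424%, 0.144% to 1.24%), against 26.7% and 27.9% of other TCRα clonotypes. The tied share was 40.6% in thymus and 35.0% in spleen for TRAV6, 35.9% and 41.1% for TRAV12, 24.6% and 34.0% for TRAV14, 19.9% and 16.2% for TRAV7, 11.8% and 14.7% for TRAV13, and 8.16% and 10.9% for TRAV9. Ties were also rare in some other subgroups, so this was not particular to the family. The tied share was 1.68% in thymus and 0.733% in spleen for TRAV8, 1.99% and 2.53% for TRAV10, and 0% in both for TRAV21. Yet both copies stood in the hit list of 409 of 428 family clonotypes in thymus and 690 of 708 in spleen. Only TRAV16N was listed in 19 and 12 clonotypes, and only TRAV16D-DV11 in 6, all of the spleen.

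Where both copies were listed, the score for TRAV16N minus that for TRAV16D-DV11 ranged from -125 to 158 in thymus and from -125 to 157 in spleen, and it fell into 3 clumps rather than 2. For description the clumps were parted at a difference of 30 score units, a value set after the distribution was seen. TRAV16N was ahead by over 30 in 167 thymus and 326 spleen clonotypes, with a median difference of 68.1 and 68.5. TRAV16D-DV11 was ahead by over 30 in 50 and 161, with a median of -70.0 and -76.9. The scores lay within 30 of each other in 192 thymus and 203 spleen clonotypes, with a median of -11.9 and -11.6, and of these 165 and 169 were named TRAV16D-DV11. Thus 76.7% of the thymus clonotypes and 50.3% of the spleen clonotypes that bear the name TRAV16D-DV11 were named on a difference of at most 30.

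In the deposited alignments of CDR3 ends, each matched base scored 5 and each of the 56 alignments with a single substitution scored 14 less than a full match. On that scale, the median lead of TRAV16N in its clump equalled 4.86 substitutions in thymus and 4.89 in spleen, and that of TRAV16D-DV11 equalled 5.0 and 5.49. These leads are larger than the 3 bases at which Trav16d-dv11 and Trav16n differed in the 290 bases shown above. The rest of each gene was not compared. Whether the cost read from CDR3 ends holds for the whole V scores was not tested. The sequences in the authors' V gene library were not used here.

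**Figure D2:**
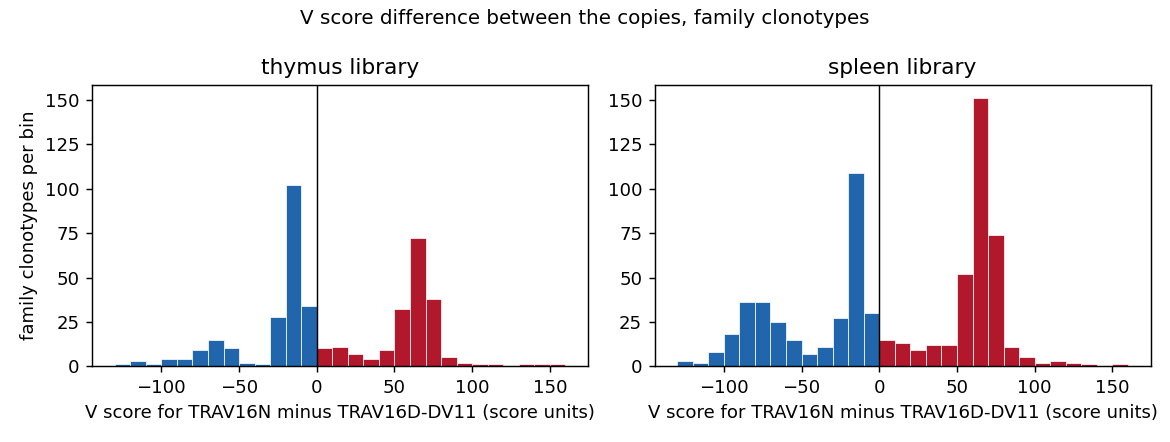
Number of family clonotypes by the difference of the V alignment scores, TRAV16N minus TRAV16D-DV11, in bins of 10 score units, for clonotypes that list both copies. Red bins (0 and above) hold clonotypes with TRAV16N ahead or tied and blue bins those with TRAV16D-DV11 ahead, and in both libraries the middle clump has its median near -12.

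Clonotypes named TRAV16N and those named TRAV16D-DV11 differed most in their TRAJ partners. The names rest on the V score, and the copy behind each name is uncertain, so the tests below compare names. TRAJ genes were grouped by position into those V-proximal to and including TRAJ45, TRAJ24 to TRAJ44, and TRAJ23 and downstream. In the thymus 71 of 213 TRAV16N clonotypes (33.3%, 27.3% to 39.9%) were joined to TRAJ45 or upstream, against 14 of 215 TRAV16D-DV11 clonotypes (6.51%, 3.92% to 10.6%), a difference of 26.8 percentage points (95% interval 19.6 to 33.9, two-sided Fisher's exact test, adjusted p = 3.34e-12). In the spleen the counts were 154 of 372 (41.4%, 36.5% to 46.5%) and 9 of 336 (2.68%, 1.42% to 5.01%), a difference of 38.7 points (33.3 to 43.9, adjusted p = 1.23e-38 by the same exact test). At the other end, TRAJ23 and downstream were used by 20.7% of TRAV16N against 39.1% of TRAV16D-DV11 clonotypes in thymus (Fisher's exact test, adjusted p = 8.97e-05) and by 14% against 50.6% in spleen (adjusted p = 1.22e-25). The middle region gave no difference past the threshold in either library, with -8.41 points in thymus (-17.7 to 1.05, Fisher's exact test, adjusted p = 0.167) and -2.10 in spleen (-9.40 to 5.22, adjusted p = 0.664). With only clonotypes whose scores were at least 30 apart, the middle region differed by -11.1 points in spleen (Fisher's exact test, adjusted p = 0.0375) and turned to 6.71 points in thymus (adjusted p = 0.529), and TRAJ23 and downstream differed by -36.2 points in thymus (adjusted p = 1.27e-06). These tests treat clonotypes of 1 library as independent, compare clonotypes within a library, and were chosen after the values were seen, with p-values adjusted by Benjamini-Hochberg over 10 tests.

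The most V-proximal genes showed the gap plainly. In both libraries together, TRAJ58, TRAJ57, TRAJ56 and TRAJ53 were each joined only to clonotypes named TRAV16N. TRAJ58 had 12 such clonotypes in thymus and 16 in spleen, TRAJ57 had 8 and 14, TRAJ56 had 4 and 25, and TRAJ53 had 4 and 15. The median TRAJ number was 39 for TRAV16N and 27 for TRAV16D-DV11 in thymus, and 42 and 23 in spleen.

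**Figure D3:**
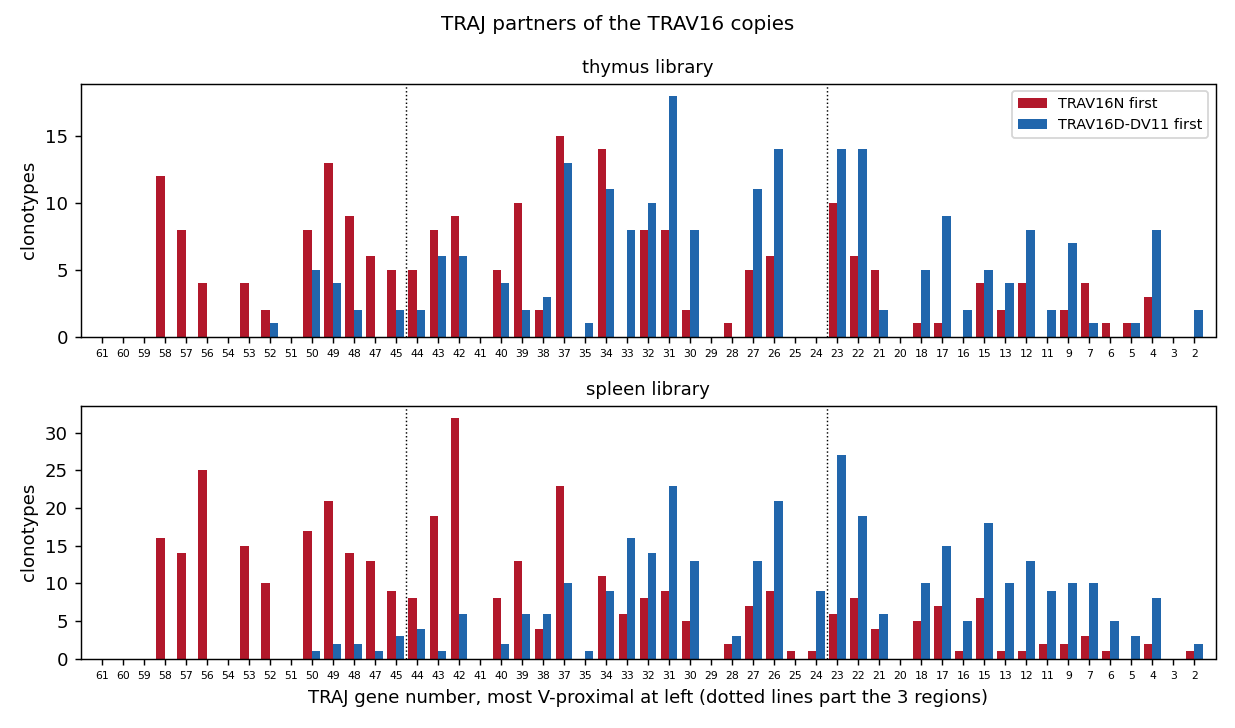
Clonotypes per TRAJ gene for the copies listed first, TRAV16N in red and TRAV16D-DV11 in blue, with TRAJ genes from the V-proximal end at the left and dotted lines between the 3 regions. Red bars fill the left end of both panels, where TRAJ58 has 12 TRAV16N and 0 TRAV16D-DV11 clonotypes in thymus and 16 and 0 in spleen.

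Use of the V-proximal genes also differed by score clump. With TRAV16N ahead by over 30, TRAJ45 or upstream was used by 39.5% of clonotypes in thymus (32.4% to 47.1%) and 47.2% in spleen (41.9% to 52.7%). With the scores within 30 it was used by 6.77% (4.0% to 11.2%) and 1.48% (0.504% to 4.25%), and with TRAV16D-DV11 ahead by 10% (4.35% to 21.4%) and 3.73% (1.72% to 7.89%). TRAJ23 and downstream were used by 13.8%, 35.9% and 50% of the clumps in that order in thymus, and by 9.82%, 57.1% and 42.2% in spleen. These are descriptions without a test.

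As named by the first V hit, no other pair of N and D copies had a difference of this size. Of 15 pairs of TRAV genes in thymus and 23 in spleen with at least 20 clonotypes of each copy, the TRAV16 pair had the largest excess of TRAJ45 or upstream in the N copy. The other pairs had N minus D differences of -13.4 to 11.4 points in thymus (14 pairs, median -1.72) and of -18.2 to 14.8 in spleen (22 pairs, median -0.607). The pair second to TRAV16 in spleen was TRAV9N-4 and TRAV9D-4, with 14.8 points. Tied clonotypes were kept under the name listed first, and ties were far more common in subgroups such as TRAV6, TRAV12 and TRAV14. The pairs are therefore not fully alike, and the part of ties and of uncertain names in these differences was not tested.

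The V genes beside each copy were described for comparison. The genes flanking TRAV16D-DV11, 2 on each side (TRAV13D-3, TRAV8D-2, TRAV13D-4 and TRAV14D-3-DV8), were joined to TRAJ45 or upstream in 13.2% of 219 thymus clonotypes (9.38% to 18.4%) and 8.21% of 329 spleen clonotypes (5.70% to 11.7%). Those flanking TRAV16N (TRAV13N-3, TRAV8N-2, TRAV13N-4 and TRAV14N-3) were so joined in 6.33% of 221 (3.81% to 10.4%) and 2.75% of 218 (1.27% to 5.87%). Those flanking TRAV16 (TRAV13-3, TRAV8-2, TRAV13-4-DV7 and TRAV14-3) were so joined in 40.3% of 72 (29.7% to 51.8%) and 46.5% of 170 (39.1% to 54.0%). The order of these percentages did not follow distance to the J genes. The genes flanking TRAV16D-DV11, the furthest copy, used TRAJ45 or upstream more often than those flanking TRAV16N, but the intervals overlapped in both libraries. A large part of each set was 1 gene. TRAV14D-3-DV8 gave 153 of the 219 thymus and 173 of the 329 spleen clonotypes, and TRAV14N-3 gave 119 of the 221 and 92 of the 218. TRAJ23 and downstream were used by 43.4% of clonotypes of the genes flanking TRAV16D-DV11 against 41.2% for those flanking TRAV16N in thymus, and by 33.1% against 61.9% in spleen. All flanking genes were chosen after the family's values were seen, and no test was made.

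Clonotypes named TRAV16N therefore stood far from the genes that flank TRAV16N and close to those that flank TRAV16. Over the 3 TRAJ regions, the summed excess of 1 set over the other was 27.0 points in thymus and 47.9 in spleen between clonotypes named TRAV16N and the neighbours of TRAV16N, but 7.12 and 6.33 points from the neighbours of TRAV16. The clump with TRAV16N ahead lay nearest the neighbours of TRAV16 (7.82 and 2.94 points), that with scores within 30 lay nearest the neighbours of TRAV16N (5.24 and 6.06), and that with TRAV16D-DV11 ahead lay nearest the neighbours of TRAV16D-DV11 (6.62 and 9.11). The part of the copies' naming in the TRAJ difference was not tested, and the name of a copy is uncertain for every family clonotype.

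**Figure D4:**
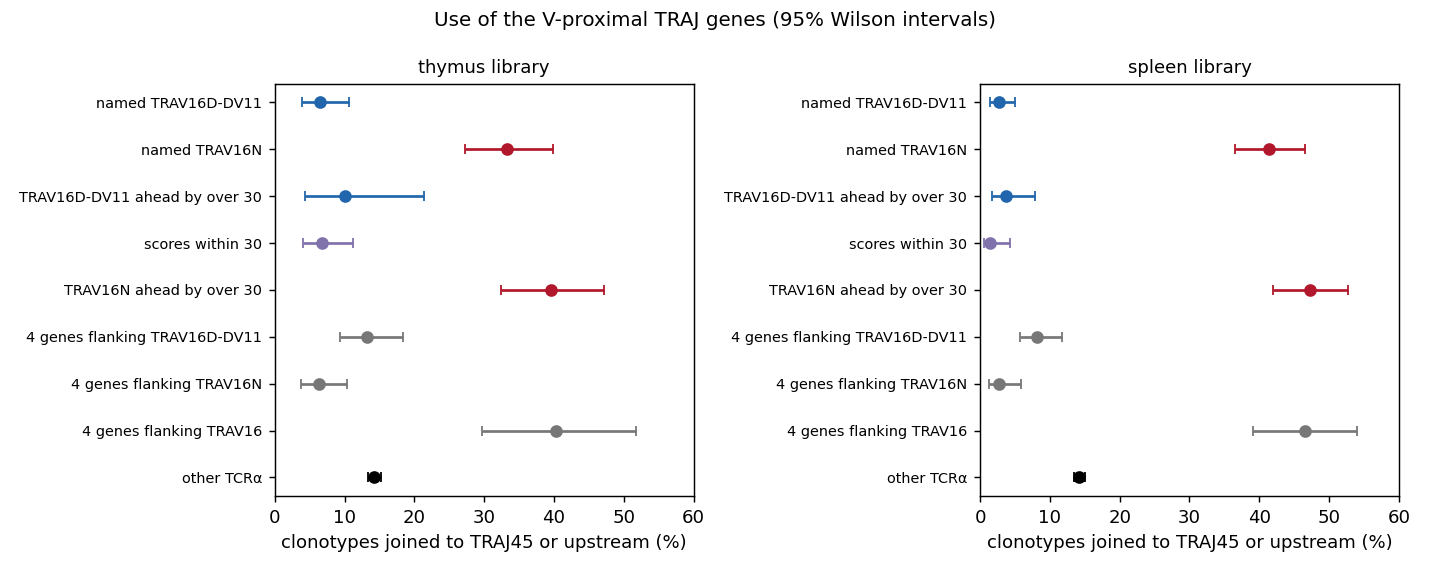
Percentage of clonotypes joined to TRAJ45 or a V-proximal gene, with Wilson 95% intervals, for the copies as named, the 3 score clumps, the 4 genes that flank each copy and all other TCRα clonotypes. In both libraries clonotypes named TRAV16N (33.3% and 41.4%) lie beside the genes flanking TRAV16 (40.3% and 46.5%) and apart from those flanking TRAV16N (6.33% and 2.75%).

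As a whole, the family was joined to the V-proximal TRAJ genes more often than other TCRα clonotypes. TRAJ45 or upstream was used by 85 of 428 family clonotypes in thymus (19.9%) against 14.2% of others, a difference of 5.64 points (2.01 to 9.78, two-sided Fisher's exact test, adjusted p = 0.00265), and by 163 of 708 in spleen (23%) against 14.2%, a difference of 8.78 points (5.74 to 12.1, adjusted p = 7.31e-09). TRAJ23 and downstream were used by 29.9% against 38.3% in thymus (Fisher's exact test, adjusted p = 0.000777) and by 31.4% against 39.0% in spleen (adjusted p = 8.42e-05). Without clonotypes of tied V genes, which are mostly not of the family, the thymus differences were 3.18 points (Fisher's exact test, adjusted p = 0.125) and -4.61 points (adjusted p = 0.0808) and no longer passed the threshold, while the spleen difference for TRAJ23 and downstream was -4.14 points (adjusted p = 0.0458). Weighted by reads, with no test, the spleen difference for TRAJ23 and downstream was -2.56 points. Here and for frame, insertions and sharing below, p-values were adjusted by Benjamini-Hochberg over 12 tests of family against other TCRα clonotypes.

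The family was joined to 42 of 47 TRAJ genes found in thymus and 44 of 52 in spleen. By clonotypes, TRAJ37 (28), TRAJ31 (26), TRAJ34 (25), TRAJ23 (24) and, with 20 each, TRAJ26 and TRAJ22 led in thymus. In the spleen TRAJ42 (38), TRAJ37 and TRAJ23 (33 each), TRAJ31 (32) and TRAJ26 (30) led. By reads, TRAJ37 led in thymus with 9.12% of family reads, followed by TRAJ34 (6.58%), TRAJ31 (6.48%), TRAJ26 (6.22%) and TRAJ22 (5.13%). In the spleen TRAJ23 led with 9.48%, followed by TRAJ7 (8.0%), TRAJ37 (7.88%), TRAJ42 (4.81%) and TRAJ39 (4.31%). TRAJ7 owed its place to few clonotypes, since it joined only 13 spleen family clonotypes, or 1.84% of them.

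Among 12 other TRAV subgroups with at least 100 clonotypes in each library, those with the TRAJ use most like the family's were TRAV13, TRAV12 and TRAV14. The overlap of their TRAJ shares with the family's, summed over all TRAJ genes, was 80.6%, 79.8% and 79.6% as the mean of both libraries. TRAV21 was the least like, at 49.6%.

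Family clonotypes were in frame more often than others. In the thymus 363 of 428 were productive, that is in frame and without a stop codon (84.8%, 81.1% to 87.9%), against 73.9% of other TCRα clonotypes (72.7% to 75.0%), a difference of 10.9 points (7.06 to 14.2, two-sided Fisher's exact test, adjusted p = 3.68e-07). In the spleen 619 of 708 were productive (87.4%, 84.8% to 89.7%) against 68.0% (67.0% to 68.9%), a difference of 19.5 points (16.6 to 21.9, by the same exact test adjusted p = 3.60e-30). Most of the rest were frameshifts, with 62 of 65 unproductive family clonotypes in thymus and 87 of 89 in spleen. In-frame stop codons were found in 3 and 2.

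The family had the highest productive share of the 13 TRAV subgroups with at least 100 clonotypes in thymus and of the 16 in spleen. In the thymus the interval overlapped that of TRAV14 (82.6%, 79.6% to 85.2%), while in spleen it did not (76.0%, 73.1% to 78.7%). The share was 76.5% in thymus and 72.1% in spleen for TRAV7, 75.5% and 72.6% for TRAV9, 74.7% and 69.1% for TRAV12, 72.5% and 66.2% for TRAV13, and 69.9% and 61.4% for TRAV6. Between the copies the share was 85.0% for TRAV16N and 84.7% for TRAV16D-DV11 in thymus (adjusted p = 1.0 by Fisher's exact test) and 90.1% and 84.5% in spleen, a difference of 5.53 points (0.624 to 10.5, adjusted p = 0.0617).

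Weighted by reads, 93.3% of family reads in thymus and 96.3% in spleen were of productive clonotypes, against 84.0% and 84.2% of other TCRα reads. Productive family clonotypes had a median of 130 reads in thymus and 196 in spleen, and unproductive ones 71 and 83.

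**Figure D5:**
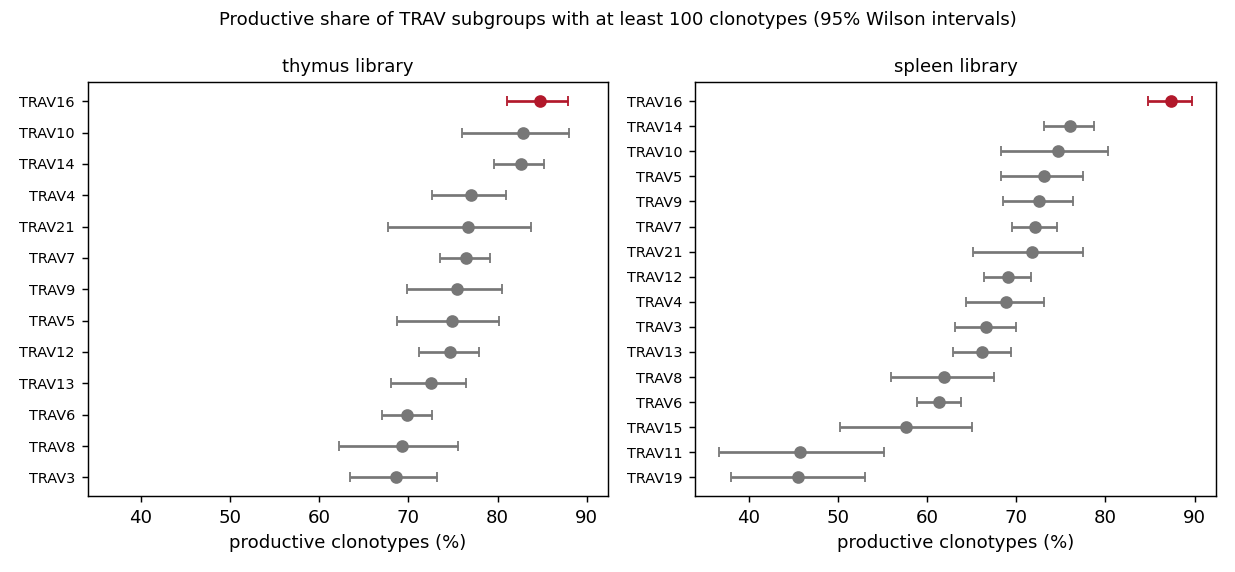
Percentage of productive clonotypes, with Wilson 95% intervals, for each TRAV subgroup with at least 100 clonotypes, with TRAV16 in red. TRAV16 stands at the top in both libraries, at 84.8% in thymus, where the intervals of TRAV10, TRAV14 and TRAV21 overlap its own, and at 87.4% in spleen, where no other interval reaches it.

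Family joints lacked added nucleotides more often than other joints. Among productive clonotypes, no nucleotide lay between the aligned V and J ends in 164 of 363 family clonotypes of the thymus (45.2%, 40.1% to 50.3%) against 30.6% of others, a difference of 14.6 points (9.33 to 19.9, two-sided Fisher's exact test, adjusted p = 6.51e-08). In the spleen it was 292 of 619 (47.2%, 43.3% to 51.1%) against 40.3%, a difference of 6.89 points (2.79 to 11, by the same exact test adjusted p = 0.00146). Weighted by reads, with no test, the differences were 22.6 and 13.1 points. The median was 1 inserted nucleotide for the family in both libraries, and 2 in thymus and 1 in spleen for other TCRα clonotypes. Family CDR3s were longer than others, averaging 43.5 nt (SD 3.95) against 40.4 nt (SD 4.83) among productive thymus clonotypes and 43.8 nt (SD 5.10) against 40.3 nt (SD 4.67) among productive spleen clonotypes. No test was made of the lengths.

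No difference between the libraries within the family passed the threshold. The productive share was 2.62 points higher in spleen (95% interval -1.45 to 6.95, two-sided Fisher's exact test, adjusted p = 0.393 over 5 tests) and the share without insertions 1.99 points higher (-4.46 to 8.39, adjusted p = 0.643). For TRAJ45 and upstream the difference was 3.16 points (-1.84 to 7.94, Fisher's exact test, adjusted p = 0.393), for TRAJ24 to TRAJ44 -4.61 (-10.6 to 1.37, adjusted p = 0.393) and for TRAJ23 and downstream 1.45 (-4.14 to 6.88, adjusted p = 0.643). The intervals allow differences of up to 10.6 points, and the tests compare these libraries and not the tissues. They also treat all clonotypes as independent, although 89 family clonotypes were found in both libraries.

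The CDR3 sequences of the leading clonotypes show how much of the joint comes from the segments. They are given with the stretch aligned to the V segment in capitals, which starts with the conserved cysteine codon and can run past the V end by a palindromic base.
thymus 1, TRAJ37: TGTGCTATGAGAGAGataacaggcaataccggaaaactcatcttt
thymus 2, TRAJ26: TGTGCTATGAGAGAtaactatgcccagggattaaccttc
thymus 3, TRAJ4: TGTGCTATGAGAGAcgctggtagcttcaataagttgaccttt
thymus 4, TRAJ30: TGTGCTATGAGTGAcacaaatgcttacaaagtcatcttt
thymus 5, TRAJ37: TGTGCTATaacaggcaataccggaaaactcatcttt
spleen 1, TRAJ7: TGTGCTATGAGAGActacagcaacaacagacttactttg
spleen 2, TRAJ23: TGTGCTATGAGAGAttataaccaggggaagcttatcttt
spleen 3, TRAJ23: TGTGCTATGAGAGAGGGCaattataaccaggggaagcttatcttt
spleen 4, TRAJ37: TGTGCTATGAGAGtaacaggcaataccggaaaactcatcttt
spleen 5, TRAJ7: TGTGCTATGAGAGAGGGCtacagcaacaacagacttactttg
All 10 were productive, and 9 had no inserted nucleotide between the aligned ends. The exception was thymus 3, with 2. In thymus 4 the stretch in capitals has a T (AGTGA) where every GRCm38 copy has an A (AGAGA). The origin of this base was not tested.

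Leading clonotypes held small shares. In the thymus the 5 had 1970, 1122, 1113, 1107 and 1057 reads, from 2.53% (2.43% to 2.65%) down to 1.36% (1.28% to 1.44%) of family reads. In the spleen they had 10330, 4865, 3572, 3056 and 2677 reads, from 4.85% (4.76% to 4.94%) down to 1.26% (1.21% to 1.31%). The first of the spleen ranked 3rd among all TCRα clonotypes there and the first of the thymus ranked 6th. In the thymus 4 of the 5 were named TRAV16N, and in spleen 4 of the 5 were named TRAV16D-DV11. Of these spleen clonotypes, 3 had scores within 30 of each other for both copies. The CDR3 amino acid sequence of spleen 3 was encoded by 4 different family clonotypes of that library.

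A set of 89 family clonotypes was found in both libraries, with the same CDR3 nucleotides and TRAJ gene. They made up 20.8% of thymus family clonotypes (17.2% to 24.9%) against 9.15% of other TCRα clonotypes (8.43% to 9.93%), a difference of 11.6 points (7.98 to 15.8, two-sided Fisher's exact test, adjusted p = 2.19e-11). In the spleen they made up 12.6% (10.3% to 15.2%) against 5.84% (5.37% to 6.34%), a difference of 6.73 points (4.44 to 9.42, by the same exact test adjusted p = 7.43e-10). They held 28.2% of thymus and 23.6% of spleen family reads. Of the 89, 85 were productive, 65 had no inserted nucleotide, and 23 had a single read in 1 of the libraries, where the part of reads passed between libraries was not tested. These counts were not set against those of other TCRα clonotypes found in both libraries, so they describe the shared joints and not a family trait. Family clonotypes also had higher median reads (120.5 against 81 in thymus, 171 against 99 in spleen), and the part of read number in the sharing was not tested.

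The same joint did not always bear the same name. In 65 of the 89 the same copy was listed first in both libraries, while 13 were named TRAV16N in thymus and TRAV16D-DV11 in spleen and 11 the reverse. Of 42 with scores at least 30 apart in both libraries, 4 changed name. The 3 shared clonotypes with most reads are among the sequences above. Spleen 1 (TRAJ7) had 10330 reads in spleen and 240 in thymus and was named TRAV16D-DV11 in both, with differences (TRAV16N minus TRAV16D-DV11) of -7.10 and -17.7 score units. Thymus 2 (TRAJ26) had 1122 reads in thymus, where the difference was 60, and 1320 in spleen, where it was -54.4. Thymus 1 (TRAJ37) had 1970 reads in thymus and 418 in spleen and was named TRAV16N in both, by 56.0 and 38.4. The TRAJ26 joint thus carried opposite copy names with large leads in the libraries.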

How the data were processed

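TCRα and TCRβ transcripts of sorted iT cells were amplified with the SMARTer Mouse TCR a/b kit and sequenced on a MiSeq, 1 library per tissue. Per the labels, bcl2fastq was used. The authors assembled clonotypes with MiXCR and deposited for each its read counts, not normalized, and its fraction of all reads of both chains. Filters, molecular identifiers and the gene library's version were not given in the sources used here. The thymus library held 2700370 reads in 7732 clonotypes and the spleen library 4585403 reads in 11826.

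From these tables, TCRα clonotypes were taken by first J hit, with no read minimum, and shares were recomputed over TCRα. Inserted nucleotides were the gap between the aligned V and J ends, and clonotypes were shared when CDR3 nucleotides, TRAJ gene and TRAV subgroup were the same. Shares have Wilson 95% intervals, their differences Newcombe intervals. Family and other clonotypes were compared within each library, and the family between libraries, by two-sided Fisher's exact tests with Benjamini-Hochberg adjustment and a threshold of 0.05. Family shares were not tested, since the family was chosen with its high use known. A share of 0 was given the limit of 3 counts. Alternatives were a minimum of 2 or 10 reads, tied V genes left out, any tied TRAV16 copy counted, merging of clonotypes 1 nucleotide from one with at least 20 times the reads, weighting by reads, productive clonotypes only, the leading clonotype left out, and matching by CDR3 alone. Genes named were the copies, the 5 leading TRAJ genes by clonotypes and by reads and the 5 leading clonotypes per library, the 3 leading shared clonotypes, the 3 likest subgroups and TRAV6, 7, 9, 12, 13 and 14. TRAJ58, 57, 56 and 53, the flanking genes, the N and D pairs and TRAV5, TRAV8, TRAV10 and TRAV21 were named after their values were seen. The members, lists and tests were chosen with earlier results of these data known. Positions and V sequences came from GENCODE M21 (GRCm38), the build of the authors' V library being not given. Protein sequences were not used. Scripts were tested on simulated data and run with Python 3.11.15, pandas 2.3.3, scipy 1.17.1 and statsmodels 0.14.6.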

Additional observations from a re-analysis of the deposited data

Results flagged for a closer look

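A pair of values had opposite directions in the libraries, and neither difference between the libraries was tested. The share of clonotypes joined to TRAJ24 to TRAJ44, family minus other TCRα, was 2.79 points in the thymus (95% interval -2.11 to 7.68, Fisher's exact test, adjusted p = 0.294) and -1.11 in the spleen (-4.89 to 2.72, adjusted p = 0.584). The share of productive clonotypes without insertions, TRAV16N minus TRAV16D-DV11, was 6.86 points in the thymus (-3.35 to 16.9, Fisher's exact test, adjusted p = 0.295) and -2.62 in the spleen (-10.4 to 5.24, adjusted p = 0.649). All 4 intervals include 0.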

How the results depend on the processing

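No paired analysis was possible because each tissue had 1 library and no replicate. Of 175 values recomputed under alternatives, 154 kept their direction and side of the threshold or, with no test, stayed within their interval, and 3 turned in direction, of which 2 were tested and neither passed the threshold. These 3 were of TRAJ24 to TRAJ44, where no difference passed the threshold in the main analysis either. Family minus other TCRα in thymus was -1.06 points weighted by reads, and TRAV16N minus TRAV16D-DV11 was 0.111 in spleen with productive clonotypes only and 6.71 in thymus with V scores at least 30 apart (Fisher's exact test, adjusted p = 0.529). Without tied V genes the family's share of TCRα clonotypes was 9.33% in thymus and 9.92% in spleen and its share of reads 10.2% and 14.1%, since fewer other clonotypes were left, and the thymus differences to other TCRα were 3.18 points for TRAJ45 and upstream (Fisher's exact test, adjusted p = 0.125) and -4.61 for TRAJ23 and downstream (adjusted p = 0.0808), with -4.14 for the latter in spleen (adjusted p = 0.0458). With productive clonotypes only, the family shares were 7.99% and 9.31% of clonotypes and 9.32% and 13.2% of reads, and without the leading family clonotype 8.27% and 11.2% of reads. Weighted by reads, with no test, the difference to other TCRα was 12.1 points for the productive share in spleen, 22.6 in thymus and 13.1 in spleen for the share without insertions, and -2.56 in spleen for TRAJ23 and downstream. With V scores at least 30 apart, a setting chosen after seeing the data, the TRAJ24 to TRAJ44 difference of TRAV16N from TRAV16D-DV11 in spleen was -11.1 points (Fisher's exact test, adjusted p = 0.0375) and that of TRAJ23 and downstream in thymus -36.2 (adjusted p = 1.27e-06). Apart from the tied V genes, the cause of these changes was not tested. Counting any tied TRAV16 copy returned the values of the main analysis, so its part of the 154 does not bear on robustness. Depth was large, so counting error was small for shares of reads. Shares of clonotypes rest on far fewer counts and had wider intervals. Neither kind of interval covers amplification, capture or differences between mice.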
